A study of Caenorhabditis elegans with 11 samples.

Results

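SACY-1, the worm ortholog of the human RNA helicase DDX41, was depleted in the germline of Caenorhabditis elegans, and the RNA of these worms was compared with that of a germline control strain. All genes of the deposited expression table belong to this comparison, 882 of 882, each with a mean in the germline-depleted and in the germline control group. Of 3096 listed splicing events, the 3002 with a value in the germline comparison were taken. Each gene is described by a log2 ratio, the log2 of its germline-depleted over its germline control mean after adding 0.1 FPKM (fragments per length of transcript and per depth of library) to both.

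The germline-depleted group was strain DG4700, with the allele tn1880 of sacy-1 on chromosome I and the transgene ieSi64 on II, in 3 samples. The tn1880 allele fuses an auxin-inducible degron, GFP and a myc tag to SACY-1, and ieSi64 makes the plant receptor TIR1 from the gld-1 promoter, which acts in germ cells. Bound to auxin, TIR1 sends a degron-tagged protein to the proteasome. The germline control was strain CA1352, with ieSi64 II and unc-119(ed3) III and an untagged sacy-1, in 3 samples. Soma-depleted strain DG4703, with TIR1 from the eft-3 promoter (3 samples), and its control CA1200 (2 samples) serve here only as neighbouring levels. All worms were young adults given 2 mM auxin for 24 h at 20 °C, the controls included, and poly(A) RNA came from lysates of whole worms. The depleted and the control strain thus differed in the tag and, by the listed genotypes, in unc-119(ed3), and the contributions of these differences cannot be told apart. Because whole worms were sequenced, fewer cells of a type and less RNA per cell cannot be told apart either.

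DDX41 is a DEAD-box protein found with the spliceosome in its catalytic phase, in which introns are cut out and exons joined. In C. elegans, sacy-1 was identified through oocyte meiotic maturation and also acts in germline sex determination and gamete formation. The adult germline fills much of the hermaphrodite body, and in it most genes of the X chromosome are weakly transcribed.

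The table gives 1 mean per group, so no value below has a standard deviation and the depth of each library is unknown. A gene is called where the authors' deposited table gives a DESeq2 adjusted p under 0.05 in the germline comparison. The table holds only genes that passed in the germline or the soma comparison, so shares of called genes describe this selected table and not the genome. By this rule 555 genes (62.9% of those listed) were called, 369 higher (41.8%) and 186 lower (21.1%) in germline-depleted worms. The other 327 were all called in the soma comparison, and their log2 ratios ran between -1.04 and 1.44. The largest adjusted p among called genes in the authors' deposited table was 0.0491, and the smallest among the rest was 0.0516.

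Most called genes stood higher in germline-depleted worms, and most of these were weakly expressed in the controls. The 369 higher genes had a median of 7.54 FPKM in germline-depleted worms and 3.26 FPKM in germline controls, and 230 of them were under 5 FPKM in the controls. The 186 lower genes had a median of 7.03 FPKM in germline-depleted worms and 14.1 FPKM in germline controls, and 37 of them were under 5 FPKM in the controls. Over all 882 listed genes, 405 were under 5 FPKM in the controls. A call as higher itself favours low control means, and a call as lower favours high ones. The sizes of the differences were moderate, and the selection of the listed genes bears on their medians. The median log2 ratio was 1.20 among higher and -1.05 among lower genes, beside 0.32 over all 882. A log2 ratio of 2 or more was reached by 19 higher genes and one of -2 or less by 0 lower genes.

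**Figure D1:**
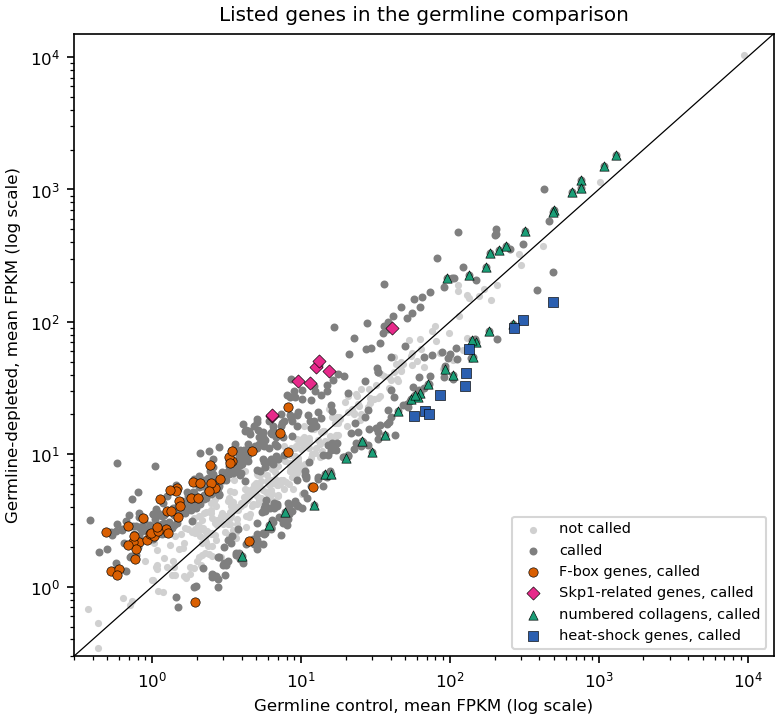
Mean FPKM of the 882 listed genes in germline-depleted worms (vertical, log scale) against germline controls (horizontal, log scale), with called genes (adjusted p under 0.05) in dark grey or coloured by list and the line of equal values in black. Called F-box and Skp1-related genes lie above the line with 3 exceptions among the F-box genes, all 10 heat-shock genes lie below it, and the called numbered collagens lie on both sides, those above it at 96.0 FPKM or more in germline controls and those below it at 268 FPKM or less.

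The soma groups, which share no samples with this comparison, were set beside both germline means. A call as higher already places the control mean below the depleted mean, and a call as lower places it above. Counts of lowest or highest means among called genes, here and in the lists below, are therefore partly fixed by the call. Among the 369 higher genes, the germline control mean was the lowest of the 4 group means in 301, and the germline-depleted mean was the highest in 143. Among the 186 lower genes, the germline control was the highest of the 4 in 151, and the germline-depleted mean the lowest in 52. The median levels show the same: the higher genes had 7.54 FPKM in germline-depleted worms and 3.26 FPKM in germline controls, beside 6.79 and 6.87 FPKM in soma-depleted and soma control worms. The part of strain background in this was not tested.

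Only 16 higher genes had a germline-depleted mean at least 1 log2 unit above each of the other 3 means, and 3 lower genes a mean as far below them. The clearest at a high level was Y54G2A.36 (chromosome IV, WBcel235, 2897694 to 2901651), with 192 FPKM in germline-depleted worms, 36.2 in germline controls, 52.2 in soma-depleted worms and 43.0 in soma controls. The germline-depleted mean stood alone here, and the other 3 were near each other. In the authors' deposited table its adjusted p was 5.7e-111. The other genes with such a gap included C45B2.8 (8.66 FPKM in germline-depleted worms, 0.577 in germline controls), T09F5.20 (8.17 and 1.04 FPKM) and ZK970.7 (97.6 and 27.7 FPKM). R07E5.5 had 15.1 FPKM in germline-depleted worms and between 4.24 and 4.42 FPKM in the other 3 groups. On the lower side were the F-box pseudogene fbxa-186 (0.761 and 1.95 FPKM), the histone gene his-67 (2.51 and 5.68 FPKM) and the glucuronosyltransferase gene ugt-13 (3.27 and 8.22 FPKM), each lowest in germline-depleted worms among the 4 groups.

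**Figure D2:**
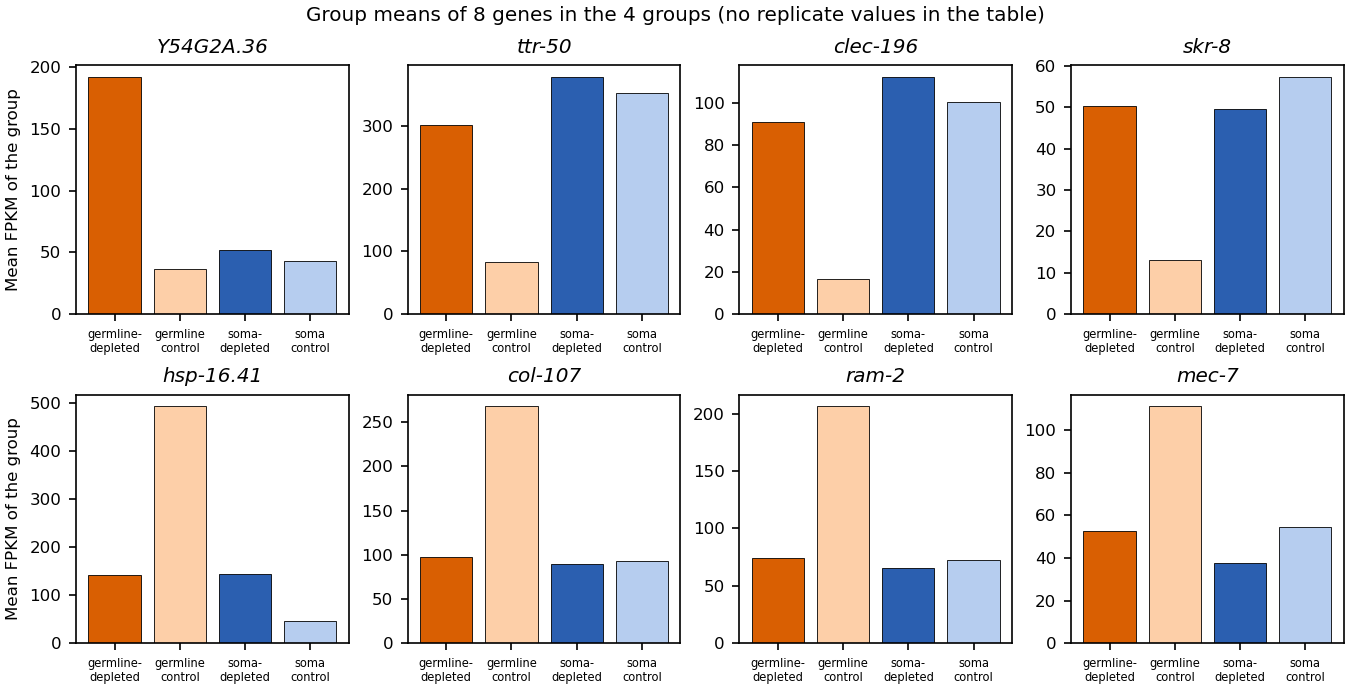
Mean FPKM of 8 genes in the germline-depleted, germline control, soma-depleted and soma control groups (bars from 0, each the authors' group mean, with no replicate values). Y54G2A.36 is highest in germline-depleted worms, at 192 FPKM against 36.2 FPKM in germline controls, whereas for the other 7 genes the germline control bar stands lowest (ttr-50, clec-196, skr-8) or highest (hsp-16.41, col-107, ram-2, mec-7).

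The gene lists used below are families by name, chosen with earlier results of these data known. They are therefore described by counts and medians without a test. Their counts stand beside 41.8% of all listed genes called higher and 21.1% called lower. Ubiquitin ligase adaptors were the largest group on the higher side. SCF ligases join a Skp1-related protein (skr genes) to an F-box protein that recruits the substrate. Of 53 listed F-box genes, 46 were called higher, 3 called lower and 4 not called, with a median log2 ratio of 1.28 over the 53. The fbxb family supplied 37 of the 46, the fbxa family 5 and the fbxc family 4. The 46 genes were weakly expressed, with a median of 3.90 FPKM in germline-depleted worms (range 1.24 to 22.6) and 1.33 FPKM in germline controls (0.490 to 8.19). The germline control mean was the lowest of the 4 groups in 44 of the 46, and in all 37 fbxb genes. The largest log2 ratio in the family was that of fbxb-96, at 2.58 FPKM in germline-depleted worms and 0.490 in germline controls (2.18), followed by fbxb-85 at 5.38 and 1.32 FPKM (1.95). An exception in its soma levels was fbxa-125, with 6.20 FPKM in germline-depleted worms, 1.88 in germline controls, 1.13 in soma-depleted worms and 0.767 in soma controls.

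The Skp1-related genes were expressed at higher levels and 8 of 9 listed were called higher, with a median log2 ratio of 1.58 over the 9. For skr-8 the means were 50.2 FPKM in germline-depleted worms and 13.2 in germline controls, beside 49.5 and 57.3 in soma-depleted and soma control worms. For skr-12 they were 35.9 FPKM in germline-depleted worms and 9.54 in germline controls, and for skr-10 they were 45.7 and 12.7 FPKM. The germline control was the lowest of the 4 groups in all 8 called genes. The ninth, skr-5, had 18.6 FPKM in germline-depleted worms and 18.4 in germline controls. The BATH-domain genes bath-10 (30.8 and 10.1 FPKM) and bath-9 (16.2 and 7.35 FPKM), of a family that serves cullin-based ligases as adaptors, were called higher too, among 5 listed BTB, BATH and MATH genes. These families hold close copies that can share reads, so single members are uncertain.

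**Figure D3:**
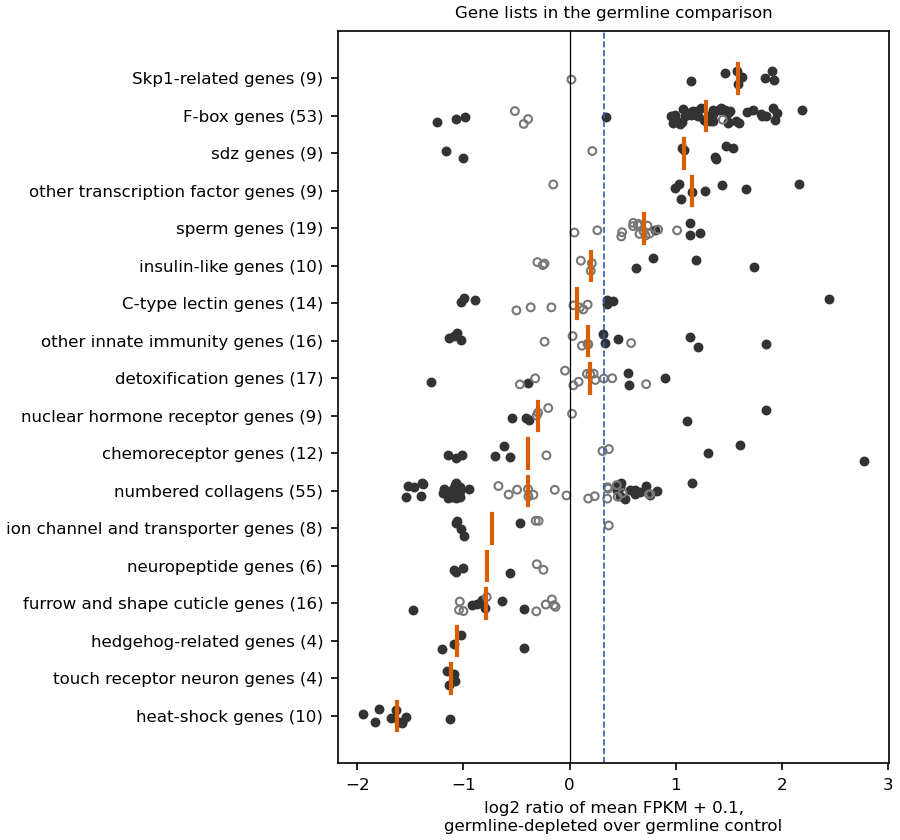
Log2 ratio of each listed member of 18 gene lists (germline-depleted over germline control, with 0.1 FPKM added), with the number listed in parentheses. Filled points are called, open points are not, orange bars are list medians and the dashed line is the median of all listed genes, 0.32; the Skp1-related and F-box lists lie farthest to the right and the heat-shock list farthest to the left.

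Most called transcription factor genes outside the nuclear receptors were also on the higher side. Of 9 listed transcription factor genes outside the nuclear receptors, 8 were called higher and 0 lower, and the germline control was the lowest of the 4 groups in all 8. The T-box gene tbx-7 had 3.47 FPKM in germline-depleted worms and 0.699 in germline controls, and end-3, which specifies endoderm in the embryo, had 2.85 and 0.833 FPKM. The homeobox genes ceh-40 (5.66 and 2.29 FPKM), ceh-5 (9.89 and 4.39 FPKM) and ceh-49 (11.5 and 5.62 FPKM) and the bZIP gene zip-7 (6.60 and 2.38 FPKM) moved the same way. The gene her-1, which encodes a secreted signal that promotes male development and was singled out after its values were seen, had 17 FPKM in germline-depleted worms and 4.10 in germline controls. Its soma-depleted and soma control means, 8.79 and 9.23 FPKM, lay between these, and the authors' deposited table gave an adjusted p of 1.3e-13. Of 9 nuclear hormone receptor genes, 2 were higher and 3 lower, beside 41.8% and 21.1% of all listed genes. The largest log2 ratio among them was that of nhr-172 (1.84 FPKM in germline-depleted worms and 0.438 in germline controls).

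The sdz genes, named for embryonic expression that depends on the factor SKN-1, had 6 called higher and 2 lower of 9 listed. The most abundant higher member was sdz-27, with 261 FPKM in germline-depleted worms and 123 in germline controls, and the most abundant lower member was sdz-24, with 173 and 388 FPKM. The germline control was the lowest of the 4 groups in all 6 higher members and the highest in both lower ones. Beside these genes, no other embryo marker used here was listed.

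Of the germ-cell lists used here, the sperm list had the most listed genes. None of 12 oocyte and germline markers was listed, nor any gene of the small RNA pathway and splicing-factor lists. As only 882 genes are listed, the absence of so short a list says little about germ-cell genes as a whole. Of 19 listed sperm genes, 4 were called higher and 0 lower, with a median log2 ratio of 0.70. Over all listed genes 41.8% were called higher. All 19 were called higher in the soma comparison, and those not called here are listed only through it. Of the 4, msp-36 (4.50 FPKM in germline-depleted worms and 1.87 in germline controls) and msp-55 (2.34 and 1.01 FPKM) encode major sperm proteins. The others were spe-11 (1.7 and 0.720 FPKM), for a paternal factor, and nspd-2 (16.4 and 9.36 FPKM). The summed level of the 19 sperm genes was 95.7 FPKM in germline-depleted worms and 59.0 in germline controls, beside 151 and 51.8 FPKM in soma-depleted and soma control worms. The part of sperm content in the other differences was not tested. The checkpoint kinase gene chk-2, which acts in meiotic prophase, had 6.08 FPKM in germline-depleted worms and 2.59 in germline controls. The gene egl-1, which starts the cell death pathway, had 3.69 and 1.65 FPKM. In the authors' deposited table both passed, egl-1 with an adjusted p of 0.00887.

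Some genes for secreted proteins were higher. The transthyretin-related gene ttr-50 had 302 FPKM in germline-depleted worms and 82.5 in germline controls, beside 378 and 352 FPKM in the soma groups. The C-type lectin gene clec-196 had 90.9 FPKM in germline-depleted worms and 16.7 in germline controls, beside 112 and 101 FPKM. In both, the germline control alone was low. The insulin-like gene ins-2 (30.1 FPKM in germline-depleted worms and 8.95 in germline controls) led 4 called insulin genes of 10 listed, all higher. This count lay near the share over all listed genes, of which 41.8% were called higher and 21.1% lower. The lectin and immunity lists had no common direction: of 14 lectin genes 4 were higher and 3 lower, and of 16 other innate immunity genes 6 were higher and 4 lower. Among the immunity genes, fip-6, of a fungus-induced family, had 82.9 FPKM in germline-depleted worms and 35.8 in germline controls, and thn-1, of the thaumatin family, had 17.7 and 38.8 FPKM. The largest increase in FPKM of all was that of F23A7.8, with 1011 FPKM in germline-depleted worms and 432 in germline controls.

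Pseudogenes and ncRNA genes were called higher more often than lower. Of 42 listed pseudogenes, 30 were called higher and 3 lower, and of 10 listed ncRNA genes 7 were higher and 0 lower. Of 8 listed lincRNA genes 2 were higher and 0 lower, with a median log2 ratio of 0.04 over the 8. The ncRNA gene F40G9.20 had 476 FPKM in germline-depleted worms and 113 in germline controls, and the pseudogene ZK380.t2 had 500 and 206 FPKM. Both are very short, F40G9.20 from 178876 to 178895 on chromosome III and ZK380.t2 from 1643850 to 1643922 on X. The mean count of F40G9.20 over all samples was only 137. FPKM divides by length, so these levels are uncertain and do not show abundant RNA. Among the 820 listed protein-coding genes, 329 were called higher and 183 lower.

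On the lower side, the heat-shock genes had the largest decreases. All 10 listed members were called lower, with a median of 37.1 FPKM in germline-depleted worms and 128 FPKM in germline controls, beside 41.8 and 18 FPKM in soma-depleted and soma control worms, and a median log2 ratio of -1.62. The small chaperone gene hsp-16.41 had 142 FPKM in germline-depleted worms and 494 in germline controls. The inducible chaperone gene hsp-70 had 20.3 FPKM in germline-depleted worms and 72.5 in germline controls. The larger relative hsp-110 had 62.2 and 135 FPKM. The germline control mean was the highest of the 4 in all 10 genes, and 9 of them were called higher in the soma comparison, where the control mean was low. Several of these genes are neighbouring near-identical copies that can share reads.

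Cuticle collagens went both ways. Of 55 listed col genes, 14 were called higher and 23 lower. The 14 higher ones were abundant, with germline control means of 96.0 FPKM or more and medians of 581 FPKM in germline-depleted worms and 406 FPKM in germline controls. Their differences were small, with a median fold of 1.51, and all 14 were called higher in the soma comparison as well. For col-119 and col-106 the log2 fold change was 0.48 and 0.62 in the germline comparison and 1.20 and 1.39 in the soma comparison. Genes with so small a germline change may be listed only through the soma comparison, so this sharing is not a separate result. For col-119 the means were 1812 FPKM in germline-depleted worms and 1302 in germline controls, and for col-106 they were 1170 and 762 FPKM. The 23 lower ones had medians of 26.1 FPKM in germline-depleted worms and 54.7 FPKM in germline controls, and the germline control was the highest of the 4 groups in every one of them. The control levels of the higher and lower collagens overlapped, since the lower ones reached 268 FPKM. The largest decrease in FPKM among them was that of col-107, with 97 FPKM in germline-depleted worms and 268 in germline controls, beside 89.6 and 93.1 FPKM in the soma groups. Collagen of the cuticle is made by the hypodermis, a somatic tissue.

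Other cuticle genes were lower where they were called. Of 16 listed furrow and shape genes, whose products set cuticle furrows and body form, 7 were called lower and 0 higher. For ram-2 the means were 74.3 FPKM in germline-depleted worms and 206 in germline controls, and for rol-6, a collagen gene of body form, they were 57.3 and 99.8 FPKM. The hedgehog-related genes grd-6, grd-13, grl-16 and qua-1 were all called lower, with a median log2 ratio of -1.06; grd-13 had 19 FPKM in germline-depleted worms and 40.5 in germline controls. Of 67 listed hypodermis markers, collagens included, 14 were higher and 28 lower.

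Some groups of neuronal genes were lower as well. The touch receptor genes mec-7, for a beta-tubulin of the touch neurons, mec-1, mec-14 and mec-18 were all lower, a list formed after their values were seen. For mec-7 the means were 52.4 FPKM in germline-depleted worms and 111 in germline controls, and for mec-18 they were 9.64 and 20.7 FPKM. The acetylcholine transporter gene unc-17 had 2.09 FPKM in germline-depleted worms and 4.83 in germline controls. Of 6 listed neuropeptide genes, 4 were called lower and 0 higher, with nlp-12 at 236 and 496 FPKM. The channel and transporter list is formed by name and is not limited to neuronal genes. Of its 8 listed genes, 5 were called lower and 0 higher. Among them were the ligand-gated channel gene lgc-35 (3.36 FPKM in germline-depleted worms and 7.14 in germline controls) and the potassium channel gene twk-2 (1.80 and 3.67 FPKM). Over all 18 listed neuron markers, insulins included, 5 were higher and 5 lower. The neuronal gene unc-119, whose ed3 mutation only the controls carry, had 7.96 FPKM in germline-depleted worms and 5.74 in germline controls.

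Of the 555 called genes, 198 were also called in the soma comparison (59.5% of listed genes were called there, 29.7% higher and 29.8% lower), which is 35.7% of the germline and 37.7% of the soma calls. As a gene is listed only if it passed in one of the comparisons, this share has no background. Among the 198, 69 were higher and 73 lower in both, 23 were higher in the germline and lower in the soma comparison, and 33 were the opposite. The heat-shock genes made up 9 of these 33.

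Splicing was measured as an inclusion level difference per event, the difference in the share of transcripts that use the listed exon or keep the intron. The order of the subtraction is in no header or label. The signs are therefore those of the table and are not read as more or less inclusion in either group. An event is called where its q-value in the authors' deposited table is under 0.05. By this rule 796 of 3002 events (26.5%) were called, 548 with a negative (18.3%) and 248 with a positive difference (8.26%). They lay in 697 named genes, 628 of which had 1 event. The largest q-value among called events in the authors' deposited table was 0.04998 and the smallest among the rest 0.0504.

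Alternative acceptor sites (A3SS) were the most numerous type and had a dominant sign. Of 1586 A3SS events, 437 (27.6%) were called, 375 negative and 62 positive, so that 85.8% were negative. The other types were divided almost evenly. Retained introns (RI) had 150 of 538 called (27.9%), 71 negative and 79 positive. Skipped exons (SE) had 109 of 501 called (21.8%), 52 negative and 57 positive. Alternative donor sites (A5SS) had 89 of 333 called (26.7%), 46 negative and 43 positive, and mutually exclusive exons (MXE) 11 of 44 (25%), 4 negative and 7 positive. The share of called events thus lay between 21.8% and 27.9% in every type, and A3SS was the type with 1 dominant sign.

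The differences were modest in size. The median absolute difference of called events was 0.122 for A3SS, 0.161 for RI, 0.117 for SE, 0.144 for A5SS and 0.095 for MXE. An absolute difference of 0.2 or more was found in 220 of the 796 events. Large A3SS differences were less one-sided: 67 of 88 at or above 0.2 were negative, and 20 of 33 at or above 0.3.

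**Figure D4:**
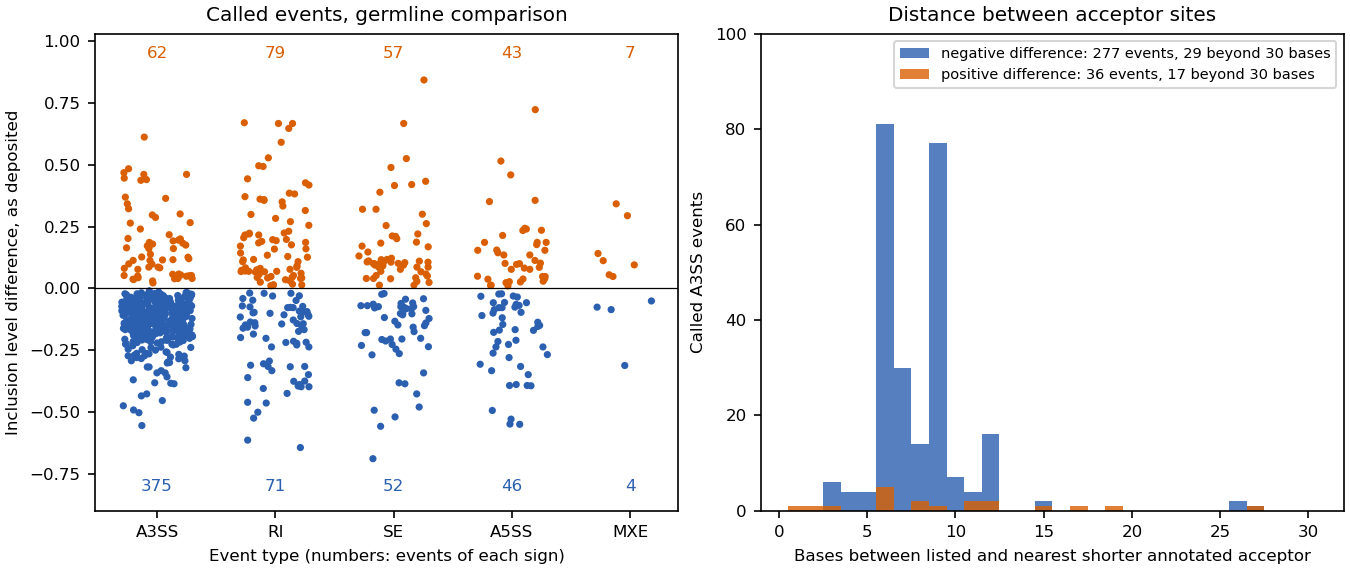
Left, inclusion level difference as deposited of the 796 called events by type, with the number of positive events above in orange and of negative events below in blue. Right, distance in bases between the listed acceptor and the nearest annotated acceptor of a shorter exon, for called A3SS events with a distance of up to 30 bases; the negative events are concentrated at 6 and 9 bases.

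Negative A3SS events mostly had an annotated acceptor close to the listed one. An annotated shorter exon with the same other end was found for 277 of the 375 negative events, and the median distance to its acceptor was 8 bases (quartiles 6 and 9). The distance was 6 bases in 81 events and 9 bases in 77, and at most 30 bases in 248. In 196 of the 277 (70.8%) it was a multiple of 3, and in 261 the site lay in coding sequence. A multiple of 3 leaves the reading frame in place only in coding sequence. For sites in coding sequence and within 30 bases, it was found in 181 of 242 (74.8%), beside 72.7% of such A3SS events without a call. The positive A3SS events were spread more widely. Of 62, 36 had such a partner, at a median distance of 23 bases (quartiles 8 and 176.5), with 19 within 30 bases. Short distances were not particular to the called events: the 890 A3SS events with a partner and no call had a median of 8 bases, 88.3% within 30 bases and 68.1% at a multiple of 3. The listed acceptor was itself annotated in 160 of the negative events, so many of their distances start from a site outside the annotation. The nearest annotated site need not be the one the authors compared, since the table gives a single exon per event.

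Called A3SS events were fewest on chromosome X. On X, 25 of 158 A3SS events were called (15.8%), whereas the 5 autosomes ranged between 26.0% and 31.6%. In the soma comparison the order was turned round, with 82.9% of listed A3SS events called on X and between 53.8% and 68.4% on the autosomes. On X, 17 of the 25 called germline events were negative (68%), beside 79.1% to 92.2% on the autosomes. As events are listed where they passed in any of 3 comparisons, a share that is high in one lowers the shares left to the others. No test of the difference between chromosomes was made.

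Overlap with the events called after soma depletion was counted by type. Of the 437 A3SS events, 206 (47.1%) were called in the soma comparison, and these are 20.7% of its 997 A3SS calls. Of events of all types with a soma value, 53.1% were called there. Among A3SS events alone the share was between 53.8% and 68.4% on the autosomes and 82.9% on X. Each of these shares lay above 47.1%. Events are listed where they passed in any of 3 comparisons, so the overlap has no plain background. Among the 206, 191 had the same sign in both, while 923 of the 997 soma A3SS calls were negative in any case. In those 191 the median absolute difference was 0.122 in the germline and 0.166 in the soma comparison. For RI, 24 of 150 were called in both, 14 with the same sign and 10 with the opposite, and for SE, A5SS and MXE the numbers were 2, 4 and 0. A further 229 A3SS events were called in the germline and not in the soma comparison, 184 of them negative.

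The authors also processed worms that make only sperm and worms that make only oocytes, from another study. Of the 375 negative A3SS events, 267 were called between those worms (65% of all events with a value there were called, 48.4% with a positive difference), and 265 of the 267 were positive there. Of the 62 positive A3SS events, 38 had a value there and 15 were called, 7 positive and 8 negative. Most A3SS events called between those worms were positive in any case, 906 of 965 (93.9%). The authors' labels for these events follow the signs: all 304 events called in both with opposite signs are labelled oocyte enriched, and all 28 with the same sign sperm enriched.

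**Figure D5:**
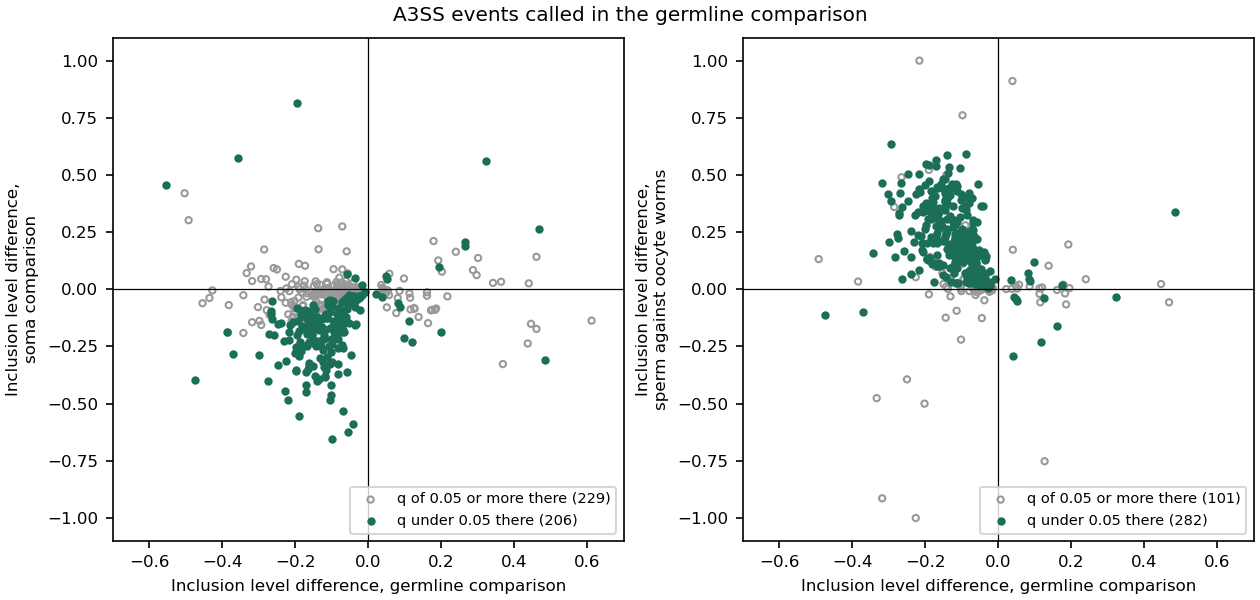
Inclusion level difference, as deposited, of the A3SS events called in the germline comparison (horizontal) against the soma comparison (left panel) and the comparison of sperm with oocyte worms (right panel), with filled points for a q-value under 0.05 in the other comparison. In the left panel 191 of 206 filled points have the same sign on both axes, and in the right panel 265 filled points lie at a negative germline and a positive sperm against oocyte difference.

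Single events were large in genes of many kinds. The largest negative A3SS difference in the authors' deposited table was -0.56 in twk-14, a potassium channel gene (exon on chromosome V, 12390526 to 12390630), and there the soma difference was 0.45 and also called. It was followed by -0.50 in the chemoreceptor gene sra-36, -0.49 in an event with no gene name (chromosome III, 6622552 to 6622655) and -0.48 in C06E1.11, whose soma difference of -0.40 was called with the same sign. The largest positive A3SS difference in the authors' deposited table was 0.61 in xol-1, the switch gene that sets male development and dosage compensation by the number of X chromosomes (chromosome X, 8043397 to 8044409, q = 3.5e-08). The nearest shorter annotated exon there lay 698 bases away. Its soma difference, -0.14, was not called. Next came 0.48 in cogc-3, of the Golgi complex that tethers vesicles, where the soma difference of -0.31 was called with the opposite sign.

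Among retained introns, the authors' deposited table gave the largest positive difference, 0.67, to bud-31, the ortholog of a spliceosome protein (chromosome III, 9696123 to 9696517, q = 3.6e-06). The soma difference there was -0.26 and not called. An intron at the F-box locus fbxb-83;T17A3.12;fbxb-84 had 0.67 in the germline and -0.68 in the soma comparison, both called. The largest negative RI differences were -0.64 in the chemoreceptor gene srz-24 and -0.61 in F25H2.4. The largest difference of any event was 0.84, for a skipped exon of B0244.4 (chromosome III, 5749092 to 5749252), with q = 2.7e-09 in the authors' deposited table. On the negative side the chemoreceptor gene srv-13 had -0.69 and the collagen gene col-99 had -0.49. Among donor sites, srx-74, another chemoreceptor gene, had 0.72, and cup-5, for a lysosomal channel, had 0.52. Chemoreceptor genes recur among these events: 18 of their 41 events were called (43.9%, beside 26.5% of all events), with a median absolute difference of 0.314. This share was not particular to them, since 14 of 34 events in F-box genes were called (41.2%). The number of reads behind each event is not known here, so large differences may rest on few reads.

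Events in genes that act in splicing were called about as often as events in general. Of 54 events in genes of the splicing-factor list, 15 were called (27.8%, beside 26.5% of all events). Of these, 8 were A3SS events, all negative, as were 85.8% of all called A3SS events. In the authors' deposited table the A3SS difference was -0.17 in sqd-1, an RNA-binding protein gene, -0.16 in rbm-25 and -0.06 in prp-8, the core protein of the spliceosome. It was -0.15 in smg-8, of nonsense-mediated decay, and -0.17 in the event named F46B6.12;smg-4. The RI differences were 0.017 in the SR protein gene rsp-6, 0.061 in snr-4;C52E4.14, -0.15 in etr-1 and 0.197 in Y73B6BL.29;sqd-1. None of these genes was in the expression table.

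Events in genes with a known part in the germline were called at about the rate of all events. Of 12 events in the oocyte and germline list, 4 were called, all A3SS and all negative, beside 26.5% of all events called and 85.8% of called A3SS events negative. Of 21 events in the meiosis and DNA damage list, 5 were called, 2 of them A3SS. In the authors' deposited table the differences were -0.13 in gld-4, a cytoplasmic poly(A) polymerase gene, -0.12 in nos-3;Y53C12B.7, -0.12 in gld-1, a translational repressor gene of meiotic germ cells, and -0.06 in mex-3. In gld-1 and mex-3 the alternative acceptors were 9 bases apart in coding sequence. The gld-1 gene also supplies the promoter and the 3 prime UTR of the TIR1 transgene, which both groups carry. The A3SS events of nos-3 and mex-3 were called in the soma comparison too, with -0.20 and -0.07, whereas those of gld-4 and gld-1 were not.

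Expression and splicing calls met in few genes. A called event and a listed expression value were both present for 22 genes, and 18 were called in both, 14 of them higher and 4 lower. They are 3.24% of the called genes and 2.58% of the genes with a called event. T05A7.13 (chromosome II) had the most events, 6 in all, every one positive and between 0.216 and 0.427, and none was called in the soma comparison. These events lie between 4660336 and 4661481 and overlap, so they are not independent. Its level was 17.4 FPKM in germline-depleted worms, 5.06 in germline controls, and 17.5 and 14.9 FPKM in soma-depleted and soma control worms. Y54G2A.36, the gene with the smallest adjusted p in the authors' deposited table, had 4 events, all negative, with an RI difference of -0.19 (2900873 to 2901365, q = 4.6e-12) and soma differences of -0.03 or closer to 0. None of the 4 events was called in the soma comparison.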

How the data were processed

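Poly(A) RNA-seq of young adults gave 6 samples in the germline comparison (3 depleted, 3 control) and 5 in the soma comparison, per the labels. STAR 2.7.2a, DESeq2 1.26.0, SAMtools 1.7, cutadapt 1.18 and Trim Galore 0.6.0 are named in the submitters' processing notes, with the build WBcel235/ce11. No label or header used here names the splicing caller or the read counter. The authors deposited mean FPKM per group, log2 fold changes, DESeq2 adjusted p-values and a mean count (a normalized signal over all samples), per the file headers. The authors deposited q-values and inclusion level differences (scores between -1 and 1) per splicing event, per the file headers. The header words the germline fold change as set against the soma control, but it lay within 0.1 of the log2 ratio of germline-depleted to germline control FPKM for 841 of 882 genes, and within 0.1 of the ratio to the soma control for 78.

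No model could be fitted to pooled means, so calls use the authors' adjusted p or q under 0.05 and no test was added. Ratios used a pseudocount of 0.1 FPKM, which pulls the ratios of weakly expressed genes towards 0. Genes and exons were matched to the Ensembl release 115 annotation (881 of 882 identifiers; strand for 2674 of 3002 events). Event starts were converted to count from 1. Computations used Python 3.11.15, numpy 2.4.6, pandas 2.3.3, scipy 1.17.1 and matplotlib 3.10.9, and were tested on simulated data. The genes, events and lists were chosen with earlier results of these data known.

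Named genes were the 8 largest FPKM differences and the 8 largest log2 ratios each way among called genes (at least 1 FPKM in either germline group for the ratios), up to 5 called members per list, up to 6 genes whose germline-depleted mean lay beyond all other groups, up to 5 events per type and sign, the 5 genes with most events, up to 6 genes called in both tables and up to 5 events of the splicing-factor and germline lists. The genes her-1, sdz-27, skr-5, ceh-49, hsp-110, unc-17, unc-119, prp-8, smg-8, rsp-6 and snr-4 were named outside the rule, after their values were seen. Replicates pooled into a mean hide their spread.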

Additional observations from a re-analysis of the deposited data

How the results depend on the processing

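No paired analysis was possible because the tables hold group means and comparisons, with no value per replicate, and for the same reason no replicate could be left out. The number of genes called higher was 369 and called lower 186. Both stayed within 1.5 times under an adjusted p under 0.01, a log2 fold change of 1 or more either way and protein-coding genes only. At least 1 FPKM in either germline group left 369 and 186 again, so this minimum could not test the counts. The fold change cut left 311 higher and 126 lower. The listing may itself rest on such a cut, so this tests the counts little. A log2 fold change of at least 2 left 29 higher and 0 lower, and a mean count of at least 100 left 231 higher. The median log2 ratio of all listed genes, 0.32, was 0.25 with 1 FPKM and 0.33 with 0.01 FPKM added. The 22 list medians kept their sign in all 66 values recomputed with another pseudocount or FPKM minimum. A pseudocount cannot change the sign of a single gene's ratio, and the FPKM minimum left most list medians as they were. The kept signs therefore say little about stability.

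The 796 called events became 402 at q under 0.01, and 498, 220 and 114 at absolute differences of at least 0.1, 0.2 and 0.3. In the same order, negative A3SS events numbered 222, 227, 67 and 20, positive ones 27, 39, 21 and 13, and other types 153, 232, 132 and 81. The negative share of A3SS events, 85.8%, was 89.2% at q under 0.01, 76.1% at 0.2 and 60.6% at 0.3. The median distance between acceptors, 8 bases, was 7 with sites at most 30 bases apart and 9 at a difference of at least 0.1. With a threshold of 0.01 in both comparisons, 113 genes and 110 events were shared with the soma. The cause of these shifts was not tested. Motif alternatives at the acceptor sites were not run, because no genome sequence was used here. Depth is unknown, so genes and events not listed may have been under the depth needed.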
